A study of Hynobius leechii and Hynobius unisacculus and Hynobius quelpaertensis with 23 samples.

Results

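Leukocytes are the white cells of blood and tissues, and 6 genes of leukocytes, or of certain kinds of them, were followed through intestine, skin and liver of wild Korean salamanders of the genus Hynobius. The 6 genes were PTPRC, CORO1A, CD74, CD79A, CXCR2 and PLEK, taken as the rows with these gene symbols in each deposited count table, out of 13514 symbols in all tables. Each of the 6 tables covered 1 lineage: HC1, HC3 and LE of H. leechii, QU of H. quelpaertensis, UN of H. unisacculus and YA of H. yangi. PTPRC, CORO1A, CXCR2 and PLEK were rows of all 6 tables and so had values in 23 libraries. CD74 was a row of the 5 tables other than YA (20 libraries), and CD79A of the HC1, LE, QU and YA tables (15 libraries).

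The libraries held polyadenylated RNA of untreated adult animals, 15 in all, caught in the wild. Intestine came from 5 animals (1 each of HC1, LE, QU, UN and YA), skin from 3 (1 each of HC1, HC3 and UN) and liver from all 15 (3 in each H. leechii lineage, 2 in each other species). The intestine and skin animals also gave a liver, and the HC1 and UN animals gave all tissues. Levels are given as CPM, the counts of a gene per 1000000 of all counts in its library, and are compared only within a table, since each lineage had its own assembled sequences. With a single intestine or skin per lineage, the replicates of a tissue are animals of different lineages.

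PTPRC encodes CD45, the tyrosine phosphatase on the surface of nearly all leukocytes, and CORO1A encodes an actin-binding coronin of leukocytes. CD74 is the invariant chain that escorts MHC class II molecules in cells that present antigen, CD79A is the signalling subunit of the B cell receptor, CXCR2 is a chemokine receptor of neutrophils, and PLEK encodes pleckstrin, a protein kinase C substrate of platelets and of white cells. These roles are known from mammals. In salamanders the liver is also a site of blood formation, with a layer of granulocyte-forming tissue beneath its capsule, and epithelia such as gut and skin hold resident antigen-presenting cells.

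Total counts were 1703075 to 3390245 in intestine, 2552636 to 4628175 in skin and 8672566 to 19281948 in liver. Among the livers, 6 stood apart, 1 per table and each from an animal with a second sampled tissue: in them odd numbers made up 43.0% to 51.4% of the low counts (1 to 19), against 11.3% to 22.5% in the other 17 libraries. These odd-count livers (HC1 liver 2, HC3 liver 2, LE liver 3, QU liver 1, UN liver 1 and YA liver 2) also had 24.3% to 40.8% of their rows at 0, against 0.654% to 15.9% in the 9 other livers. Tissue and library type are therefore tied within an animal: every liver that can be paired with an intestine or a skin is an odd-count liver. Tables held 10 to 15 of 15 hepatocyte genes, 5 to 9 of 10 enterocyte and goblet cell genes and 6 to 11 of 11 keratinocyte genes. Sums are over the genes that a table held, so their ranges mix gene sets. The summed CPM of the hepatocyte genes was 79.1 to 9284 in intestine, 71.1 to 15332 in skin and 30857 to 211035 in liver. The highest sums outside liver were mostly of 1 gene, APOB at 8684 CPM in the QU intestine and FGB at 14685 CPM in the HC3 skin. The summed CPM of the enterocyte and goblet cell genes was 6011 to 20797 in intestine, 862 to 14751 in skin, with HC3 at the top, and 7.3 to 144 in liver. That of the keratinocyte genes was 327 to 2095 in intestine, 24487 to 31639 in skin and 28.2 to 412 in liver. The part of tissue makeup in the results was not tested.

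**Figure D1:**
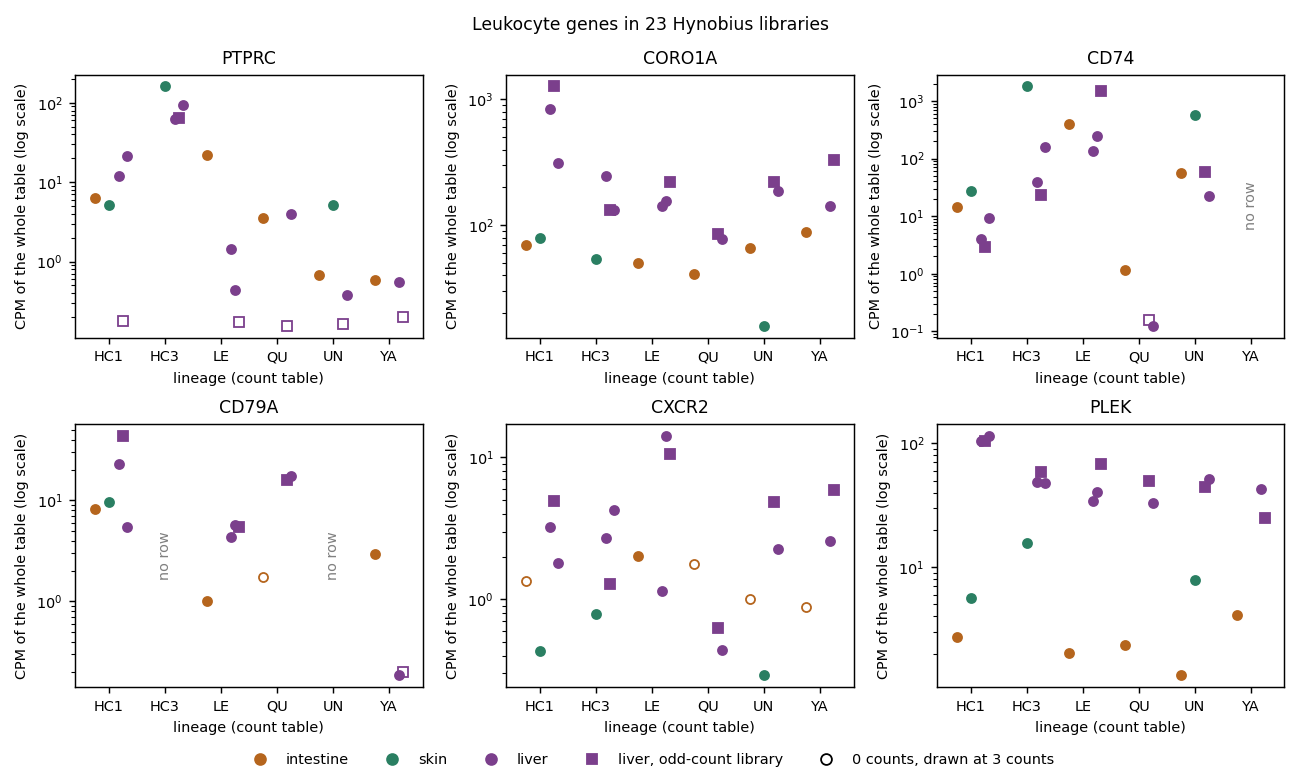
CPM of the 6 genes in every library, by lineage, on a log axis, with intestine and skin to the left of the livers; squares are odd-count livers and open symbols libraries at 0 counts, drawn at the level of 3 counts. CORO1A and PLEK lie below every liver of their table in the 5 intestines and the 3 skins, while CD74 lies above every liver in the 3 skins.

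Intestine was set against liver to ask which leukocyte transcripts separated the gut from the liver across lineages. CORO1A, PLEK and CXCR2 were lower in intestine, whereas PTPRC, CD74 and CD79A did not pass the test in either direction. The fitted decrease was smallest for CORO1A. In edgeR's quasi-likelihood test with lineage as a covariate, 3 of the 6 genes were thus called lower at an adjusted p under 0.05 and 0 were called higher, also with DESeq2 and at an unadjusted p under 0.05. Over all 2252 genes found in the 6 tables, 2.22% were called lower and 8.44% in either direction, and 5.15% and 37.3% by DESeq2. In the fits over 5 tables, which held CD74, and over 4, which held CD79A, 6.51% and 4.86% of genes were called.

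CORO1A stood at 70.4 CPM in the HC1 intestine, against 837, 1268 and 312 CPM in HC1 livers 1, 2 and 3. It stood at 50.3 CPM in the LE intestine, against 142, 157 and 220 CPM in the LE livers. The intestine was below every liver in both tables, and the gap was wider in HC1. The QU intestine had 41.1 CPM, against 85.5 and 77.8 CPM in the QU livers. The UN intestine had 65.8 CPM, against 221 and 188 CPM in the UN livers, and the YA intestine had 88.8 CPM, against 142 and 330 CPM in the YA livers. The 5 intestines thus held 41.1 to 88.8 CPM, and none overlapped the livers of its table. Relative to the mean of the livers, intestine was 11.4-fold lower in HC1, 3.44-fold in LE, 3.11-fold in UN, 2.66-fold in YA and 1.99-fold in QU. In the fit its log2 fold change was -2.26 ± 0.53 (SE, adjusted p = 0.0134). With each animal as a block, where only the odd-count livers are paired with an intestine, the estimate was -2.27 and the adjusted p 0.135, and without the LE intestine the adjusted p was 0.0502, so the call rests on the fit and on that library.

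PLEK had the largest fitted decrease of the 6 genes in intestine. It had 2.71 CPM (6 counts) in the HC1 intestine, against 105, 105 and 114 CPM in the HC1 livers, and 2.03 CPM (4 counts) in the LE intestine, against 34.3, 40.2 and 67.9 CPM in the LE livers. The QU intestine had 2.35 CPM (4 counts), against 49.5 and 33.2 CPM in liver, and the UN intestine 1.34 CPM (4 counts), against 44.0 and 52.0 CPM. The YA intestine had 4.13 CPM (14 counts), against 42.6 and 25.0 CPM. All 5 intestines were therefore far below every liver of their table, by 39.9-fold in HC1, 35.9-fold in UN, 23.3-fold in LE, 17.6-fold in QU and 8.19-fold in YA relative to the liver means. The log2 fold change was -4.96 ± 0.59 (adjusted p = 2.89e-05), and with the animal as a block it remained past the threshold (adjusted p = 0.0360). Genes whose intestine lay below every liver in all 5 of these tables made up 1.67% of the 2821 genes that the tables share, and CORO1A and PLEK were among them.

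CXCR2 had few counts everywhere, at most 185 in a library. Intestines of HC1, QU, UN and YA had 0 counts, while their livers had 28, 83 and 28 counts in HC1 (3.23, 4.93 and 1.80 CPM), 12 and 7 in QU (0.622 and 0.438 CPM), 88 and 36 in UN (4.83 and 2.25 CPM) and 28 and 89 in YA (2.59 and 5.89 CPM). The LE intestine had 4 counts (2.03 CPM), within the range of the LE livers at 1.14, 14.1 and 10.6 CPM. With a floor of 3 counts per library, CXCR2 was at least 4.79-fold lower in the YA intestine, at least 3.54-fold in UN and at least 2.45-fold in HC1 than the mean of the livers. In QU only 0.903 counts would be expected at the liver mean, so a difference was not detectable at this depth. A log2 fold change of -4.56 ± 0.93 passed (adjusted p = 0.00555, and 0.0490 with the animal as a block), and its size depends on the prior count where intestines are at 0. CXCR2 has a close paralog, CXCR1, and reads could be divided between them, so its own level is uncertain.

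**Figure D2:**
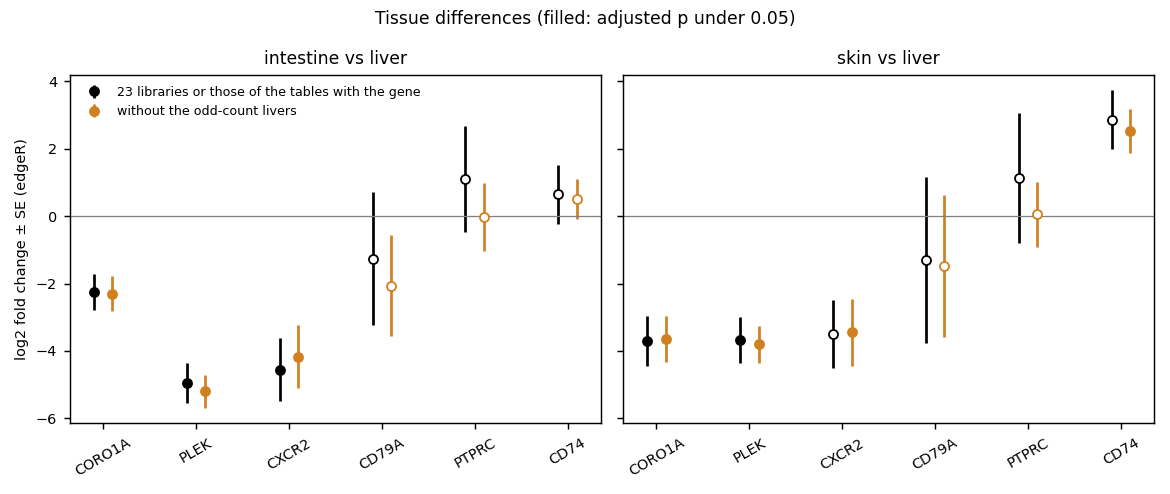
Log2 fold changes of the 6 genes with SE from edgeR, for intestine against liver and skin against liver, over all libraries (black) and without the odd-count livers (orange), with filled symbols for calls at an adjusted p under 0.05. CORO1A and PLEK are filled in both panels, CXCR2 over all libraries only in intestine, and CD74 only in skin without the odd-count livers.

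CD79A differed in direction from table to table. The QU intestine had 0 counts, at least 9.50-fold lower than the mean of the QU livers (15.9 and 17.6 CPM), and 28.5 counts would be expected there at the liver mean. The LE intestine had 1.02 CPM (2 counts), against 4.37, 5.74 and 5.47 CPM in the LE livers, and was also below each of them. In YA the order was the opposite, with 2.95 CPM (10 counts) in intestine, against 0.185 CPM (2 counts) and 0 in liver. The HC1 intestine, at 8.12 CPM, fell within its livers, which themselves ran over 22.8, 43.2 and 5.41 CPM. The B cell receptor transcript thus was below the livers in 2 intestines, above them in 1 and within them in 1. Over all genes, 19.0% of intestine values, counted by gene and table, lay below every liver and 58.3% above. The log2 fold change of CD79A was -1.26 ± 1.98 (adjusted p = 0.738).

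CD74 also had no common direction in intestine. It was above every liver in HC1, at 14.4 CPM against 4.04, 2.85 and 9.27 CPM, and in QU, where it had 2 counts (1.17 CPM), against 0 and 2 counts (0.125 CPM), all under the floor. It was within the livers in LE, at 400 CPM against 133, 245 and 1479 CPM, and in UN, at 55.4 CPM against 58.1 and 21.9 CPM. In both of these tables the liver above the intestine was the odd-count one, and set against the even-count livers alone, CD74 was higher in 4 of 4 intestines, in QU on 2 counts against 2. Of the 3563 genes in these 4 tables, 31.9% did the same. The log2 fold change was 0.65 ± 0.87 (adjusted p = 0.704), and its range over the other settings was 0.17 to 1.38, with none past the threshold.

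PTPRC could be read only with the library type beside it. It had 0 counts in 5 of the 6 odd-count livers, although 283 counts in HC1, 77.2 in QU, 16.5 in LE, 8.38 in YA and 6.82 in UN would be expected there at the mean of the even-count livers of the table. The exception was HC3, with 64.2 CPM in its odd-count liver and 62.3 and 93.6 CPM in its other livers. CORO1A, CXCR2 and PLEK had counts in all 6 of these libraries, while CD74 was at 0 in that of QU and CD79A in that of YA. CORO1A was above the even-count livers in 5 of the 6 odd-count livers, CXCR2 in 4 and PLEK in 3. Whether a liver without CD45 transcript counts lacks them through its library type was not tested.

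Against the even-count livers, PTPRC in intestine was 6.32 CPM (14 counts) in HC1, against 12 and 21.6 CPM, and 21.9 CPM (43 counts) in LE, against 1.46 and 0.441 CPM. It was 3.52 CPM (6 counts, interval 1.29 to 7.67) in QU, against 4.0 CPM. Intestine was thus lower in HC1 and higher in LE, and in QU the difference was within counting error. UN and YA had 2 counts each in intestine (0.668 and 0.590 CPM), against 0.375 and 0.555 CPM (6 counts each) in the even-count livers, so neither side is far above the floor. Over all livers its log2 fold change was 1.11 ± 1.58 (adjusted p = 0.701), it was -0.02 without the odd-count livers and -0.50 without the LE intestine. With the animal as a block, a comparison with those livers at 0, it was 6.65 (adjusted p = 0.0657).

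Skin was compared with liver in the same way. CORO1A and PLEK were lower in skin, as they were in intestine, and CD74 lay above every liver in each skin without passing the test. In the edgeR fit 2 of the 6 genes were called lower and 0 higher (CD74 was higher at an unadjusted p under 0.05 and with DESeq2), while 1.02% of the 2252 genes were called lower and 4.09% in either direction (4.17% and 19.9% by DESeq2). CD74, with a log2 fold change of 2.86 ± 0.87, was just outside the threshold (adjusted p = 0.0608), where 5.85% of the genes of its fit were called, and so was CXCR2, at -3.49 ± 1.01 (adjusted p = 0.0566).

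CD74 in skin reached 1782 CPM in HC3 (4550 counts, exact 95% binomial interval 1731 to 1835), against 38.8, 23.2 and 156 CPM in the HC3 livers. It was 580 CPM (1999 counts) in the UN skin, against 58.1 and 21.9 CPM in the UN livers, and 26.8 CPM (124 counts) in the HC1 skin, against 4.04, 2.85 and 9.27 CPM in the HC1 livers. The invariant chain was thus above every liver in 3 of 3 skins, 24.6-fold over the liver mean in HC3, 14.5-fold in UN and 4.97-fold in HC1. Such a position is common in these data: 39.0% of the 4820 genes shared by the 3 skin tables were above every liver in all of them. CD74 was called higher in skin with median-of-ratios scaling (adjusted p = 0.0382), where 6.55% of genes were called higher, with DESeq2 (0.0029, where 15.6% were) and without the odd-count livers (2.53, adjusted p = 0.0285, where 6.95% were). It was also called at whole-table scale (0.0078), where 18.2% of genes were called higher, and 28.3% without the odd-count livers. In the 3 tables with skin, it was not called over genes shared by the 5 tables (2.81 ± 0.74, adjusted p = 0.0643, with 3.73% of genes called). It was called there over all their shared genes (2.71 ± 0.72, adjusted p = 0.0490, with 6.57% called), a fit chosen after the data were seen. CD74 was not called with the animal as a block (0.217), with a term for library type (0.105) or when any skin was left out (0.117 to 0.303). The HC3 skin had 1782 CPM of CD74 and 161 CPM of PTPRC. Its enterocyte and goblet cell sum was 14751 CPM over 5 genes, of which FCGBP had 8829 CPM. The HC1 and UN skins had 862 and 1247 CPM over 7 genes. The erythroid sum of the HC3 skin was 9437 CPM, against 2390 to 7732 CPM in the HC3 livers. That sum was also above every liver in the HC1 skin and within the livers in the UN skin. The part of these cells in the HC3 values was not tested.

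CORO1A in skin was 79.9 CPM in HC1, against livers at 837, 1268 and 312 CPM, 54.5 CPM in HC3, against 246, 133 and 133 CPM, and 16.0 CPM in UN, against 221 and 188 CPM. Each skin was below every liver of its table, 12.8-fold under the liver mean in UN, 10.1-fold in HC1 and 3.14-fold in HC3. Its log2 fold change was -3.70 ± 0.73 (adjusted p = 0.00602). The call was lost with the animal as a block (0.137), without the HC1 skin (0.0505) and without the UN skin (0.0826).

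PLEK in skin was 5.62 CPM in HC1, against 105, 105 and 114 CPM in liver, 15.7 CPM in HC3, against 48.7, 59.1 and 47.5 CPM, and 7.84 CPM in UN, against 44.0 and 52.0 CPM. It too was below every liver in 3 of 3 skins, by 19.2-fold, 3.31-fold and 6.12-fold relative to the liver means of HC1, HC3 and UN. Among the genes of the 3 tables, 2.43% were below every liver in all of them, CORO1A, PLEK and CXCR2 included. The fitted change of PLEK on the log2 scale was -3.67 ± 0.69 (adjusted p = 0.00446), and the gene lost the call with the animal as a block (0.121) and without the HC1 skin (0.0505).

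CXCR2 had 2 counts in the HC1 skin (0.432 CPM), 2 in the HC3 skin (0.784 CPM) and 1 in the UN skin (0.290 CPM). At the mean of the livers, 15.4, 7.0 and 12.2 counts would be expected in these libraries. Each was below all of its livers, whose lowest values were 1.80 CPM in HC1, 1.28 CPM in HC3 and 2.25 CPM in UN. In HC3 this was within counting error, since the skin's interval of 0.0949 to 2.83 CPM covered livers 1 and 2 (2.68 and 1.28 CPM). The receptor passed as lower in skin once odd-count livers were left out (adjusted p = 0.0416, with 4.36% of genes called lower) and with DESeq2 (0.0056, with 4.17%), but not in the edgeR fit over all livers.

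PTPRC was high in the HC3 skin, at 161 CPM (410 counts), against 62.3, 64.2 and 93.6 CPM in the HC3 livers. It was 5.22 CPM (18 counts) in the UN skin, against 0 and 0.375 CPM in liver, and 5.19 CPM (24 counts) in the HC1 skin, against 12, 0 and 21.6 CPM. Skin was thus above every liver in HC3 and UN and, in HC1, below both livers that had counts. Over all genes, 63.2% of skin values, counted by gene and table, lay above every liver. In UN the liver at 0 was the odd-count one. The log2 fold change of PTPRC, 1.13 ± 1.92, did not pass (adjusted p = 0.815). CD79A was measured in 1 skin, HC1, at 9.72 CPM (45 counts), within its livers at 22.8, 43.2 and 5.41 CPM, and its estimate of -1.31 ± 2.47 (adjusted p = 0.987, with 0.123% of genes called) rests on that library.

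These comparisons depend on what a library's total is made of. The median log2 fold change of the 2252 genes was 0.71 in intestine and 0.60 in skin, and 1.40 and 1.62 when whole-table totals set the scale. CORO1A remained lower at that scale, at -1.71 in intestine (adjusted p = 0.0322) and -2.68 in skin (0.0183), as did PLEK, at -4.34 and -2.59. Calls over all genes were 140 higher and 50 lower in intestine and 69 and 23 in skin, against 483 and 29 and 378 and 20 at the whole-table scale. In bulk tissue, fewer leukocytes and less of a transcript per leukocyte cannot be told apart.

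Skin and intestine could be set against each other within an animal in HC1 and UN. CD74 was higher in skin in both, at 26.8 CPM against 14.4 CPM in HC1 (1.86-fold) and 580 CPM against 55.4 CPM in UN (10.5-fold). PLEK was 7.84 CPM (27 counts) in skin against 1.34 CPM (4 counts) in intestine in UN, with counting intervals that did not overlap. In HC1 it was 5.62 CPM (26 counts) in skin against 2.71 CPM (6 counts) in intestine, with intervals of 3.67 to 8.23 and 0.994 to 5.89 that did. CORO1A was 4.12-fold lower in skin in UN (16.0 CPM against 65.8 CPM). In HC1 it was 1.14-fold higher in skin, with intervals of 72.0 to 88.5 CPM in skin and 59.8 to 82.4 CPM in intestine that overlapped. PTPRC had 24 counts in skin and 14 in intestine in HC1 (5.19 and 6.32 CPM), and 18 and 2 counts in UN (5.22 and 0.668 CPM). CD79A in HC1 was 9.72 CPM in skin and 8.12 CPM in intestine.

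In the fits over all lineages none of the 6 genes was called between skin and intestine (edgeR). The log2 fold changes were 2.22 ± 1.24 for CD74, 1.30 ± 0.68 for PLEK, 1.06 ± 1.18 for CXCR2, 0.03 ± 1.62 for PTPRC, -0.05 ± 2.38 for CD79A and -1.44 ± 0.74 for CORO1A, all with an adjusted p of 0.999. Unadjusted p-values were 0.092 for CD74, 0.0661 for CORO1A and 0.0707 for PLEK, so 0 of the 6 were under 0.05, and DESeq2 called 0 of them (it gave CXCR2 no adjusted p). Few genes were called at all, 0.0444% in the fit over 6 tables, 0.0727% over 5 and 0.0308% over 4, with 71 of 2252 genes at an unadjusted p under 0.05 and 40 called by DESeq2. Differences of the sizes above were thus not resolved by this test.

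**Figure D3:**
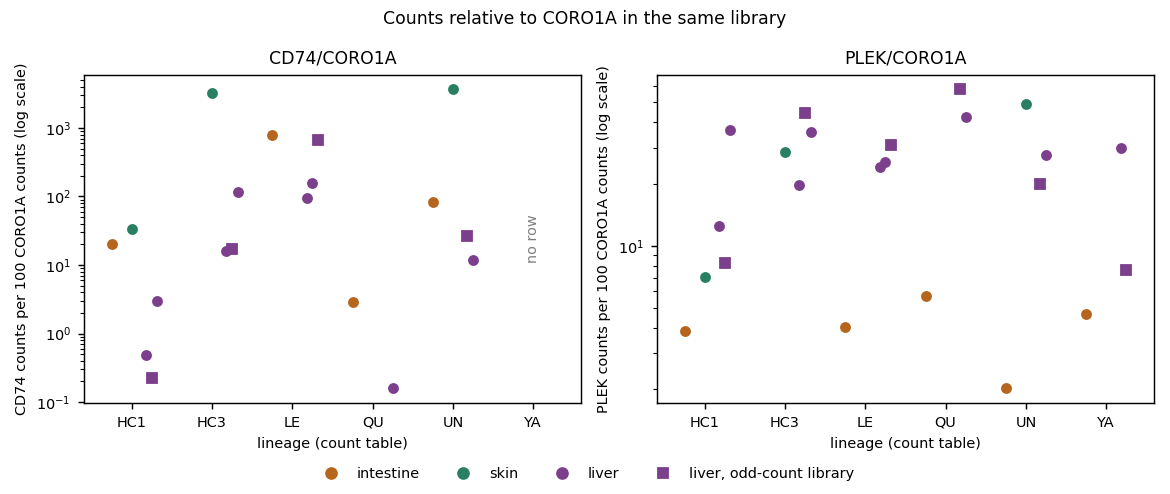
Counts of CD74 and of PLEK per 100 counts of CORO1A in each library, by lineage, on a log axis, with intestine and skin to the left of the livers and squares for odd-count livers; QU liver 1, with 0 CD74 counts, is not drawn. CD74 per CORO1A lies above every liver in the intestines and skins of all tables that hold both, in QU on 2 CD74 counts. PLEK per CORO1A lies below every liver in the 5 intestines.

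A ratio of counts within a library does not depend on the library total, so CORO1A was used as a yardstick for the other genes. CD74 per 100 CORO1A counts was 20.5 in the HC1 intestine and 33.5 in the HC1 skin, against 0.482, 0.225 and 2.97 in the HC1 livers. It was 84.3 in the UN intestine and 3635 in the UN skin, against 26.4 and 11.6 in the UN livers, and 3273 in the HC3 skin, against 15.8, 17.3 and 117. The LE intestine had 795, against 94.1, 156 and 674, and the QU intestine 2.86, against 0 and 0.161. The QU ratios rest on 2 CD74 counts in intestine and 0 and 2 in liver, all under the floor. The ratio was above every liver in 4 of 4 intestines and 3 of 3 skins. CORO1A itself was lower in both tissues, and 64.4% of genes did the same in the 4 intestine tables and 75.9% in the 3 skin tables. PTPRC per CORO1A was likewise above every liver in 5 of 5 intestines, as were 59.0% of genes, and in 2 of 3 skins. In all 5 intestine tables the odd-count liver had 0 PTPRC counts, so any count in intestine put the ratio above that liver. The UN and YA intestines had 2 PTPRC counts each. CD79A per CORO1A was above every liver in 2 intestines and below in 2, QU at 0 counts of CD79A and LE at 2. CXCR2 per CORO1A was below in 4 of 5 intestines and 0 of 3 skins. Those 4 intestines had 0 CXCR2 counts, so the ratio was 0 whatever the CORO1A level and adds nothing to the counts themselves. Shares over all genes were taken only for positions held in every table, so none stands beside these positions or that of PTPRC in skin.

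PLEK per 100 CORO1A counts went the other way in intestine. It was 3.85 in the HC1 intestine, against 12.5, 8.28 and 36.6 in the livers, 4.04 in LE, against 24.2, 25.5 and 30.9, and 5.71 in QU, against 57.9 and 42.6. In UN it was 2.03, against 19.9 and 27.6, and in YA 4.65, against 30.01 and 7.59. Pleckstrin thus was below every liver even relative to CORO1A in 5 of 5 intestines. That position was held by 7 of the 2821 shared genes, or 0.248%. The ratios rest on 6 PLEK counts in the HC1 intestine, 4 each in LE, QU and UN, and 14 in YA. No counting interval was taken for them. In HC1 and YA, with nearest livers at 8.28 and 7.59, the position may lie within counting error. In skin the ratio was below the livers in HC1 (7.03), within them in HC3 (28.8) and above them in UN (49.1, against 19.9 and 27.6). The low ratio was thus not shared by all skins.

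The levels of the 6 genes also varied between livers of a lineage. PLEK was the steadiest, its highest liver being 1.09 to 1.98 times its lowest in each of 6 tables. CORO1A spanned 1.10 to 4.06 times, with HC1 at the top, and CXCR2 1.42 to 12.3 times, with LE at the top. CD74 spanned 2.65 to 11.1 times in the 4 tables whose livers all had counts, and CD79A 1.11 to 7.98 times in 3. The decreases of PLEK in intestine were larger than this spread in every table, whereas the differences of CD79A in HC1 and of CD74 in LE and UN were not.

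The remaining leukocyte genes came from 7 lists with 110 genes besides these 6, of which 79 were in at least 1 table but only 10 in all 6. In intestine 1 of the 10 was called higher and 0 lower, where 6.22% of all genes were called higher and 2.22% lower. Their median log2 fold change was -0.38, against 0.71 over all genes. The gene called was TIMD4, a macrophage receptor for phosphatidylserine, at 4.38 ± 1.08 (adjusted p = 0.0189). It had 3.61 CPM (8 counts) in the HC1 intestine, 37.6 (74 counts) in LE and 19.2 (65 counts) in YA. In QU and UN it had 2.35 and 1.34 CPM, on 4 counts each, near the floor. The livers of these tables had at most 1.29 CPM, and their odd-count livers all had 0 counts of TIMD4. DESeq2 called 3 of the 10 in intestine, where it called 37.3% of all genes. In skin 0 of the 10 were called, where 4.09% of all genes were. Their median was 0.44, against 0.60 over all genes. Beside 406 of all 2252 genes, 1 of the 10 was at an unadjusted p under 0.05. That gene, named after its values were seen, was HLA-DMB, an MHC class II peptide loading subunit, at 2.63 ± 0.75 (adjusted p = 0.0542). DESeq2 called 2 of the 10 in skin, where it called 19.9% of all genes.

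When all genes shared by the tables with both tissues were fitted, 13 leukocyte genes were tested in intestine and 25 in skin, where 7.59% and 6.57% of all genes were called. In intestine TIMD4 was called higher again and CXCR1, the paralog of CXCR2, was called lower, at -2.75 ± 0.76 (adjusted p = 0.0401). CXCR1 had 2.71 CPM in the HC1 intestine, against 14.2, 14.9 and 7.15 CPM in the HC1 livers, and 0 in the YA intestine, against 11.6 and 7.15 CPM. In skin TBXAS1, the thromboxane synthase of platelets and macrophages, was called higher, at 4.13 ± 1.03 (adjusted p = 0.0369).

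Granulocyte genes other than CXCR2 had a low sum in intestine and skin, while their single values were divided. The sum was 259 in the HC1 intestine and 189 CPM in the HC1 skin, against 709 to 853 CPM in the HC1 livers, and 414 in the UN intestine and 613 in the UN skin, against 4150 and 2936. It was 514 in the LE intestine, against 1494 to 1981, 193 in QU, against 2780 and 5226, 152 in YA, against 716 and 342, and 142 in the HC3 skin, against 975 to 2891. The sum was below every liver in 5 of 5 intestines and 3 of 3 skins. Counted by gene and table, 32 of 65 values (49.2%) lay below every liver in intestine and 15 of 35 (42.9%) in skin, against 19.0% and 11.4% over all genes. Above every liver lay 18 (27.7%) in intestine and 11 (31.4%) in skin, against 58.3% and 63.2%. CSF3R, the receptor for granulocyte colony-stimulating factor, and CYBB, a subunit of the phagocyte oxidase, were in all 6 tables and were not called in intestine or skin. Their log2 fold changes in intestine were -0.90 ± 0.94 (adjusted p = 0.579) and -1.56 ± 1.99 (adjusted p = 0.660). CYBB nevertheless lay below every liver in 3 intestines. It had 9.15 CPM in LE, against 201 to 309, 19.96 in QU, against 120 and 171, and 4.67 in UN, against 181 and 210. In skin it had 10.2 CPM in HC3, against 193 to 353, and 17.99 in UN. In HC1 and YA it had 0 to 6 counts per library, with intestine and the HC1 skin above the livers. The gene with the largest part of the sum differed between tables, LTF in QU livers, CEBPE in UN livers and MPO in 2 of the HC3 livers.

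MHC class II genes other than CD74 were seldom low in these tissues. None of their 26 values in intestine or 14 in skin lay below every liver, against 19.0% and 11.4% over all genes. No value can lie below a liver at 0 counts, and HLA-DMA had 0 in the odd-count livers of HC1, QU and UN. Its UN intestine was at 0 too. Above every liver lay 14 (53.8%) of the values of these genes in intestine and 11 (78.6%) in skin, against 58.3% and 63.2%. Their summed CPM was 1224 in the HC1 intestine and 1424 in the HC1 skin, against 205, 216 and 71.3 in the HC1 livers, and 179 in the HC3 skin, against 37.7 to 51.3. In UN it was 36.4 in intestine and 39.2 in skin, within the livers at 23.6 and 49.2. The sum was above every liver in 2 of 5 intestines and 2 of 3 skins and within them in the rest. CD74 alone, at 580 CPM in the UN skin, thus stood far over the sum of the other genes of its list there. The UN table held only 4 of those genes, however, and neither HLA-DRA nor HLA-DRB1. In the HC3 skin CD74, at 1782 CPM, was also over that sum. In the HC1 skin it was under the sum, at 26.8 against 1424 CPM, of which HLA-DRB1 had 962 CPM.

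The other lists were less uniform. The pan-leukocyte sum without PTPRC and CORO1A was below every liver in 4 of 5 intestines and 2 of 3 skins. By gene and table, 23 of its 49 values (46.9%) were above every liver in intestine and 17 (34.7%) below, against 58.3% and 19.0% over all genes. In skin 15 of 30 (50%) were above and 6 (20%) below, against 63.2% and 11.4%. The B cell sum without CD79A was below in 1 intestine, above in 1 and within in 3, and the T cell sum was below in 2, above in 2 and within in 1. In skin each of these sums was below the livers in 1 table, above in 1 and within in 1. Single genes held much of these sums. In UN, where the B cell sums of intestine and skin were below, CR2 had 1609 of 1653 and 853 of 897 CPM in the livers. In the HC3 skin, where the B cell sum was above, BLNK had 70.5 of 74.0 CPM. The T cell sum was of 1 gene in LE (CD8A), QU (GATA3) and HC3 (CD3E). The macrophage sum was below in 2 intestines and above in 1, and below in 1 skin and above in 2. Of its 28 gene and table values in skin, 19 (67.9%) were above every liver, against 63.2% over all genes. Below every liver were 5 (17.9%), against 11.4%. In intestine 26 of 49 values (53.1%) were above and 16 (32.7%) below, against 58.3% and 19.0%. In the QU intestine, where the macrophage sum was above the livers, C1QA had 1293 of 1609 CPM. The sum of platelets and thrombocytes without PLEK was below in 2 and above in 3 intestines and above in 3 of 3 skins. PLEK was below the livers also where this sum was above them, but single genes held much of the sum there. ITGB3 had 258 of 290 CPM in the HC1 intestine and 63.4 of 69.3 CPM in the QU intestine. In YA the list held GP1BA alone, at 0.590 CPM, below the floor of 3 counts (0.885 CPM). In the HC3 skin TBXAS1 had 10.2 of 11.0 CPM. The list was short, at 18 gene and table values in intestine and 12 in skin. Above every liver were 50% in each tissue, against 58.3% and 63.2% over all genes. Below every liver were 33.3% and 16.7%, against 19.0% and 11.4%.

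**Figure D4:**
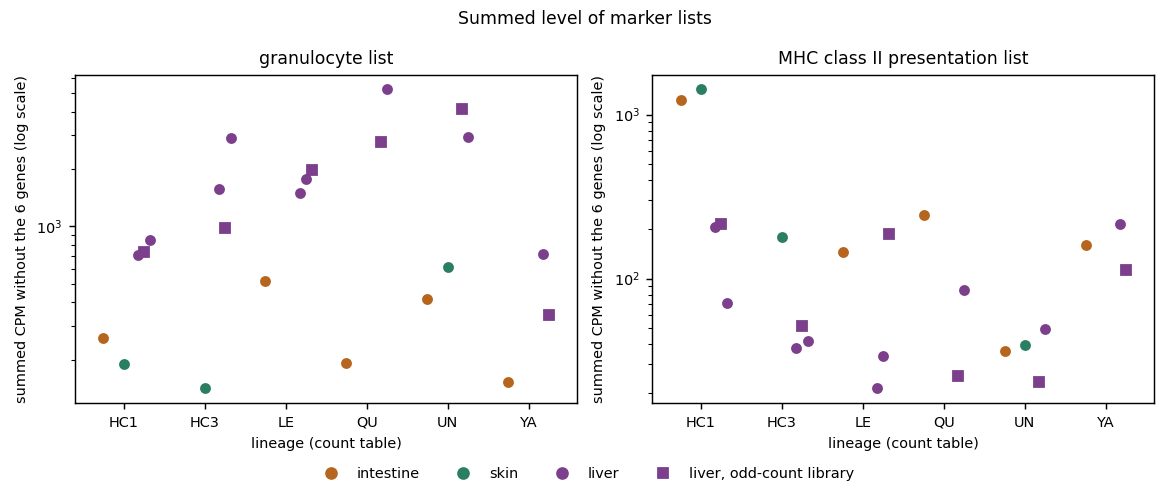
Summed CPM of the granulocyte list and of the MHC class II list without the 6 genes, per library and lineage, on a log axis, with intestine and skin to the left of the livers and squares for odd-count livers. The granulocyte sum of every intestine and skin lies below the livers of its table, and the MHC class II sum lies above or among them.

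For each of the 6 genes, the genes with the most similar pattern were found by the mean absolute difference in log2(CPM + 1), centred within each table, over the 17 libraries other than the odd-count livers. For PLEK they were IL31RA (0.58), HHEX (0.62) and COLEC10 (0.67), against a median difference of 2.01 over all genes compared. For CORO1A they were HSD17B13 (0.41), SERHL2 (0.42) and DBN1 (0.46), against 1.35, and for CXCR2 they were PCSK6 (0.40), C7ORF59 (0.44) and CHPF2 (0.45), against 1.17. CD74 was nearest to STRN3 (0.35), KIAA1217 (0.47) and OSBPL1A (0.47) over 15 libraries, against 1.04. CD79A was nearest to APEX1 (0.41), ATF4 (0.52) and QSOX1 (0.57) over 11 libraries, against 1.26, and PTPRC to TIMM21 (0.39), TMEM2 (0.41) and SKP1 (0.43), against 0.90. For a gene flat within each table, the difference would be 1.59 from PLEK, 0.89 from CORO1A and 0.74 from CXCR2. It would be 1.13 from CD74, 0.93 from CD79A and 0.70 from PTPRC, under the median for all but CD74. The named genes are the smallest differences among 1976 to 2614 genes compared.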

How the data were processed

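Polyadenylated RNA was isolated by the authors using Trizol and Direct-Zol, and the labels' protocols call the material embryos although each sample is labelled as adult tissue. BWA and SAMtools are named per the submitters' processing notes. Versions, build and counting rule are not given in the sources used here. The authors deposited unnormalized counts as 6 tables, 1 row per symbol and 1 column per library, per the file headers. The symbols are the authors', and whether reads of paralogs were divided between rows was not known. The row without a gene name was dropped, with 0.169% of a library or less.

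Groups were taken from sample titles, since descriptions often name another lineage's table. Tissues of 1 animal were paired by these titles, so the animal could serve as a replicate block. CPM were computed on the total of the whole table. Intervals are exact binomial at 95%, and a count of 0 was given a floor of 3 counts. Both cover counting error only and treat counts as separate reads, an assumption that may fail where low counts are mostly even.

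Counts were tested in R 4.3.3 with edgeR 4.0.16 (filterByExpr with a minimum count of 10, TMM, robust glmQLFit, glmQLFTest, model of lineage plus tissue). Genes common to 6, 5 or 4 tables were fitted together (2252, 2750 and 3250 genes), and p-values were adjusted by Benjamini-Hochberg over all genes of a fit and called under 0.05. The SE is the fold change divided by the square root of F. The scripts were tested on simulated data. The alternatives were median-of-ratios or whole-table scaling, DESeq2 1.42.0, no filter, a minimum of 5 CPM in 3 libraries, a block for the animal, a term for library type (odd share of at least 0.3 among counts under 20), no odd-count livers, tables with both tissues only, and single intestines or skins left out. Whole-table scaling without odd-count livers, and fits of all genes of the tables with both tissues, were added after the data were seen. All 6 genes are named, and a list gene is named where it was called over the 6 tables. TBXAS1 and CXCR1 were called in the added fits only. The nearest genes are the 3 with the smallest difference among those with a mean of at least 10 CPM. The 6 genes, the lists and the tests were chosen with earlier results of these data known. No reference sequence was used.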

Additional observations from a re-analysis of the deposited data

How the results depend on the processing

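CXCR2 and PLEK remained called lower in intestine under all 15 alternatives (log2 fold changes -7.87 to -3.51 and -5.44 to -4.34), and CORO1A under all but the replicate block (-2.27, adjusted p = 0.135) and the fit without the LE intestine (0.0502). In skin the count of the 6 genes called lower was 2, but 0 with the animal as a replicate block, where 0 of 2252 genes were called and 439 had an unadjusted p under 0.05, 3 with DESeq2 or without odd-count livers, where CXCR2 passed too, and 0 to 2 with a skin left out. The count called higher in skin was 0, but 1, CD74 each time, with median-of-ratios factors, whole-table sizes, DESeq2, without odd-count livers, and without those livers at whole-table sizes, where 6.55%, 18.2%, 15.6%, 6.95% and 28.3% of all genes were called higher in that order. Of other leukocyte genes, 1 was called in intestine, where 8.44% of all genes were called (such shares follow in brackets). The count was 2 with median-of-ratios factors (16.9%), whole-table sizes (22.7%), no odd-count livers (16%) or all genes of the tables with both tissues (7.59%). It was 3 with DESeq2 (37.3%), with all genes but no odd-count livers (13.4%), or with whole-table sizes and no odd-count livers (31.5%). With an intestine left out it was 0 to 2 (3.64% to 5.91%). In skin 0 were called (4.09%). The count there was 1 with median-of-ratios factors (7.82%), whole-table sizes (17.7%), no odd-count livers (11.2%) or all genes (6.57%). It was 2 with DESeq2 (19.9%) or with all genes but no odd-count livers (9.53%). With whole-table sizes and no odd-count livers it was 4 (31.3%).

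Some estimates that never passed changed sign. PTPRC in intestine (1.11) was -0.023 without odd-count livers and -0.50 to 1.69 with an intestine left out. PTPRC in skin against liver (1.13) was -0.081 with a term for library type and -0.61 to 2.52 with a skin left out, and in skin against intestine (0.03) it was -0.12 with median-of-ratios factors, -0.36 with the replicate block, -0.58 with a term for library type and -2.41 to 1.23 with a library left out. CD79A in intestine (-1.26) was -3.23 to 0.22 with an intestine left out. In skin against intestine (-0.05) it was 0.43 with the replicate block, 0.57 without odd-count livers, 0.24 in tables with both tissues, 0.54 without odd-count livers at whole-table sizes and -1.69 to 1.07 with a library left out. The cause was not tested. The block changed no call of a member other than those named here and in the skin comparison.

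DESeq2 called 723 genes higher and 116 lower in intestine, against 140 and 50 by edgeR, and 354 and 94 in skin, against 69 and 23. Depth limits CXCR2 most, with 0 to 4 counts in each intestine and skin.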
